A study of Mus musculus with 5 samples.

Results

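The transcription factors Runx1, Runx2 and Runx3 and the skeletal genes Sp7, Spp1, Ibsp and Acan were read together for trimethylation of histone H3 at lysine 27 (H3K27me3) in mouse dermal fibroblasts. These 7 genes, of 55450 annotated genes of which 21951 are protein-coding, were named as a list with earlier results of these data known, and share a place in bone, cartilage or blood formation. The study profiled H3K27me3 by chromatin immunoprecipitation and sequencing in wild-type dermal fibroblasts at 2 stages, labelled embryonic day 14 (E14) and embryonic day 17 (E17), with 2 libraries per stage. Each library has its own list of broad peaks, stretches with more fragments from the antibody than their surroundings give. No strain or treatment is named in the labels, and the cells were expanded in culture, so the lists describe cultured fibroblasts and not fresh skin. The methods of the study name later days than the labels for both stages, and another culture medium, chromatin fragmentation and library kit, so the label names E14 and E17 are kept here. The labels do not say whether the 2 libraries of a stage came from separate animals or cultures, the methods speak of 2 per sample without naming animals, and p-values then measure only the spread between these libraries, which may be technical.

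Runx proteins are the DNA-binding subunits of core-binding factor and act with their partner Cbfb. Runx1 is needed for blood formation, Runx2 for the osteoblast lineage and Runx3 for sensory neurons and T cells, and each gene is transcribed from a distal promoter (P1) and a proximal promoter (P2) that give proteins with different first residues. H3K27me3 is laid down by Polycomb repressive complex 2 and is found at developmental genes that a lineage does not use, which makes skeletal and blood regulators typical carriers of the mark in a dermal cell.

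A promoter was taken as a group of start sites of 1 gene with gaps of no more than 1000 bp, and its window ran 3000 bp to either side. The 7 genes have 13 promoters by this rule, 7 of them in Runx genes. The mark was found at few of them. Peaks overlapped the windows of 2 of the 13 promoters in all 4 libraries (Runx3 P2 and Acan start 1), where 7.06% of the 48620 promoters of protein-coding genes did. Sp7 had a peak in both E14 libraries and in neither E17 library, and the internal start of Acan had a peak in E14 replicate 1 alone. The other 9 promoters had no peak in any library, where the share over all promoters was 84.2%. These 9 are not all separate places, as the windows of 2 Runx1 promoters overlap each other and so do those of the Spp1 starts. Of the 7 genes, 4 (Runx1, Runx2, Spp1 and Ibsp) had no peak anywhere between 3000 bp around their starts and the end of the gene, against 70.7% of the protein-coding genes. Unmarked members were thus no more frequent than unmarked promoters or genes in general. An absent peak means a signal below the threshold of that list and not an absence of the mark, and depth could not be read from the lists, which hold no counts of reads.

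**Figure D1:**
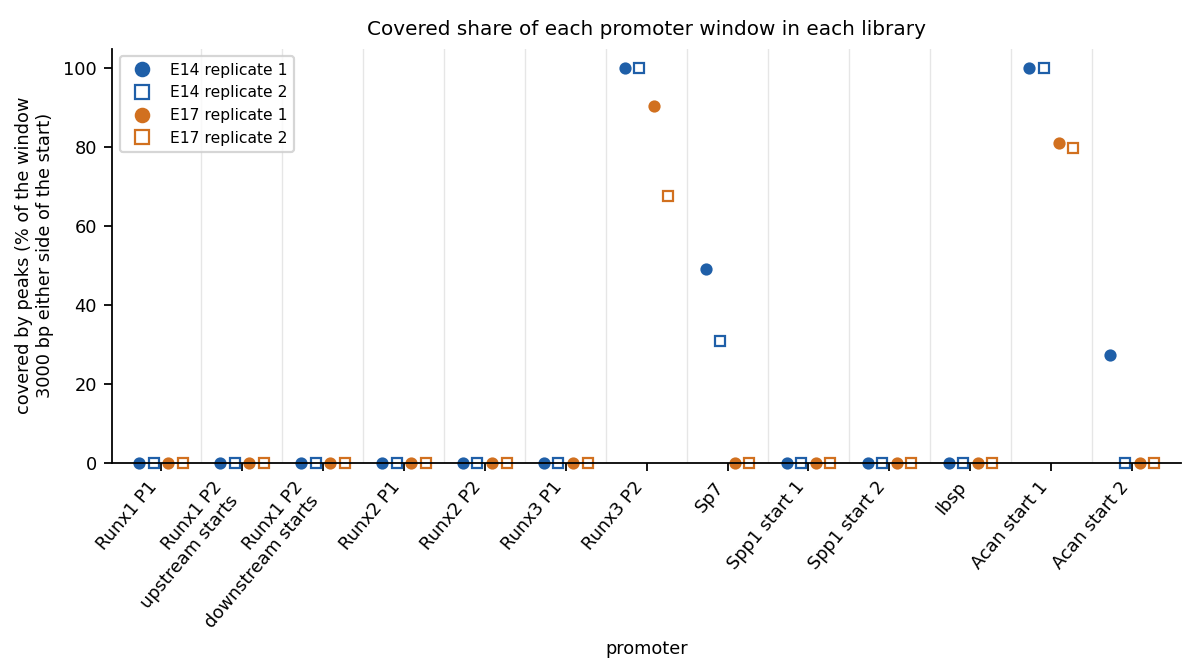
Covered share (in %) of the window 3000 bp either side of each of the 13 promoters, with 1 point per library, E14 in blue, E17 in orange, replicate 1 as filled circles and replicate 2 as open squares. Runx3 P2 and Acan start 1 are covered in all 4 libraries with both E14 points at 100%, Sp7 is covered at E14 only, and 9 promoters lie at 0 in every library.

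Runx3 was the marked member of the Runx family, and of its 2 promoters P2 carried the mark, beside stretches elsewhere in the gene. The window of Runx3 P2 (chromosome 4, start at 135152496 on the plus strand, GRCm38) is 7941 bp long because it holds 5 start sites. Peaks covered 7941 bp of it in E14 replicate 1, 7941 bp in E14 replicate 2, 7177 bp in E17 replicate 1 and 5373 bp in E17 replicate 2. The window was filled at E14 and partly covered at E17, and the stages did not overlap. The mean at E17 was 6275 ± 1276 bp (SD, n = 2), a change of −21.0% from E14 (exact permutation test, two-sided, p = 0.333). With 2 libraries against 2, p = 0.333 is the smallest p the exact test can give, and a comparison of the stages cannot reach 0.05. All 3 member promoters marked in both E14 libraries were covered over a shorter length in both E17 libraries, as were 81.8% of the 5696 promoters marked in both E14 libraries, and the median change over those promoters was −58.3%. Over the 3432 promoters with a peak in all 4 libraries the median change was −34.7%. Because both E14 libraries fill the window, the change at Runx3 P2 is limited by its width, and no order against these medians was read from it. With windows of 5000 bp the covered lengths were 11941, 11941, 8898 and 5769 bp. Only 1 of the 5 transcripts that start at Runx3 P2 is protein-coding. With start sites of protein-coding transcripts only, the lengths were 6001, 6001, 5237 and 4862 bp, a difference of −951.5 bp. The difference of −1666 bp also depends on single libraries and was −2568 bp without E17 replicate 1 and −764 bp without E17 replicate 2. In a bulk library, fewer cells that carry the mark cannot be told apart from less mark per cell.

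The Runx3 P2 peaks stood high in the E14 lists and nearer the middle of the shorter E17 lists. Fold enrichment, the ratio of the pileup to the local background over a peak, was ranked within each list, and the percentile is 100 for the highest peak of the list. The strongest peak at Runx3 P2 stood at percentile 98.7 in E14 replicate 1 and 96.2 in E14 replicate 2, places 281 of 21546 and 638 of 16574. In the E17 lists it stood at percentile 69.3 in replicate 1 and 60.7 in replicate 2, places 3200 of 10429 and 2796 of 7107. Ranked among peaks of at least 1000 bp only, its mean percentile was 94.9 at E14 and 42.7 at E17. The promoters marked in all 4 libraries had median percentiles of 93.5 and 90.9 in the E14 lists and 84.3 and 74.6 in the E17 lists. Runx3 P2 therefore stood above the median of these promoters in both E14 lists and below it in both E17 lists. When only peaks with a −log10 q-value of at least 5 were kept, no E17 peak was left in the window, and the covered lengths were 7941, 7941, 0 and 0 bp.

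At E14 a single broad peak ran across Runx3 P2, 14278 bp wide in replicate 1 and 12705 bp wide in replicate 2, and covered all 5 start sites. At E17 the covered stretch was broken at the first start in both libraries and at a further place in replicate 2. In E17 replicate 1 one peak ended at 135152209 and the next began at 135152974, leaving 764 bp without a peak, and in E17 replicate 2 the edges were 135152244 and 135153203, leaving 958 bp. The further break in E17 replicate 2 ran from 135155316 to 135156673, was longer at 1358 bp, and had no counterpart in E17 replicate 1. The first start site, 135152496, lies in the gap in both E17 libraries. Of the 5 start sites, peaks covered 3 in E17 replicate 1 and 2 in E17 replicate 2. Among 2368 promoters whose first start was covered in both E14 libraries and that had a peak in both E17 libraries, 2.2% had the start uncovered between peaks on either side in both E17 libraries, a comparison added once the Runx3 peaks had been seen. The 729 bp shared by both gaps held 78.6% G and C, with 116 CpG dinucleotides and a CpG ratio (observed over expected) of 1.04. The 729 bp before it had 30 CpG and a ratio of 0.50, and the 729 bp after it had 41 CpG and a ratio of 0.549. The break common to both E17 libraries thus lay over CpG-dense sequence. Broad peak calling joins enriched stretches that lie close to each other, so a dip inside the E14 peaks would not be visible in the lists.

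**Figure D2:**
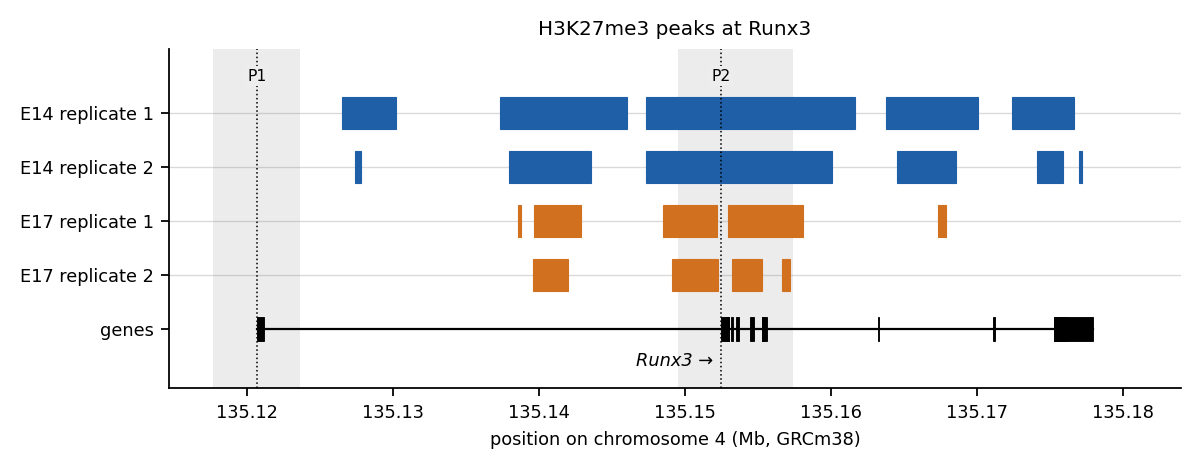
Peaks at Runx3 in the 4 libraries (blue E14, orange E17) against position on chromosome 4 in Mb, with exons in black, start sites dotted and the windows of P1 and P2 shaded. E14 peaks run across P2 without a break, E17 peaks leave 764 and 958 bp open at the P2 start and, in replicate 2, a further 1358 bp downstream, and no peak enters the P1 window in any library.

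The distal promoter of Runx3 was unmarked in all 4 libraries. P1 starts at 135120652, and the nearest peak lay 2831 bp from its window in E14 replicate 1, 3710 bp in E14 replicate 2, 14671 bp in E17 replicate 1 and 15945 bp in E17 replicate 2. The uncovered distance was thus longer in both E17 libraries. Between the promoters, the long intron of Runx3 carried a separate marked stretch (135137316 to 135146026) that holds no annotated exon. It was covered over 8711 bp in E14 replicate 1, 5672 bp in E14 replicate 2, 3415 bp in E17 replicate 1 and 2390 bp in E17 replicate 2. Its strongest peak had percentiles of 93.8 and 92.1 in the E14 lists, below the peak at P2, and 89.2 and 79.9 in the E17 lists, above the peaks at P2. The order of promoter and intron by fold enrichment was therefore opposite at the 2 stages in every library, a pattern picked out after the ranks were seen. Further stretches lay downstream of P2. The stretch from 135163777 to 135170055 was covered over 6279, 4058, 488 and 0 bp, and 135172417 to 135176638, which reaches into the last exon, over 4222, 1784, 0 and 0 bp. These downstream stretches and the one nearest P1 were the parts that had little or no cover at E17.

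Over the whole Runx3 gene (135120652 to 135177990, 57339 bp), peaks covered 37173 bp in E14 replicate 1, 24879 bp in E14 replicate 2, 12801 bp in E17 replicate 1 and 8159 bp in E17 replicate 2. That was 64.8% and 43.4% of the gene at E14 and 22.3% and 14.2% at E17. The stages did not overlap, and the difference between the replicates of E14 was smaller than the distance from either of them to the mean of E17. The means were 31026 ± 8693 bp (SD, n = 2) at E14 and 10480 ± 3282 bp (SD, n = 2) at E17, a change of −66.2% (exact permutation test, two-sided, p = 0.333). Over the whole genome, the lists covered 52.8 and 32.1 Mb in E14 replicates 1 and 2 and 20 and 14.3 Mb in E17 replicates 1 and 2. The covered length was thus lower at E17 in general and not at Runx3 alone. With lists of equal covered length the difference was −10544 bp instead of −20546 bp, from 22989, 18377, 12119 and 8159 bp.

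Runx1 and Runx2 held no peak in any library over gene bodies of 224684 bp (chromosome 16, 92601466 to 92826149, minus strand) and 318811 bp (chromosome 17, 44495987 to 44814797, minus strand). Among the 848 protein-coding genes at least as long as Runx1, 32.1% had no peak over the gene and its promoter windows in any library. The peak nearest to Runx1 lay 54548 bp away in E14 replicate 1, 86958 bp in E14 replicate 2, 88209 bp in E17 replicate 1 and 86908 bp in E17 replicate 2. For Runx2 the distances were 47252, 188150, 80287 and 55061 bp. Both genes thus lay in long stretches free of peaks at either stage, at P1 and at P2 alike. Runx1 P2 was counted as upstream starts (first at 92697328) and downstream starts (first at 92696125), because they are more than 1000 bp apart.

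Each Runx gene neighbours a member of the Clic family of chloride intracellular channel genes, and the mark was on the opposite partner at Runx3. Clic6, 60222 bp from Runx1, was covered near its starts over 7619, 5624, 4497 and 4501 bp in the E14 replicates 1 and 2 and the E17 replicates 1 and 2, with percentiles of 97.2, 96.7, 94.9 and 90.8. Clic5, 215814 bp from Runx2, was covered over 4517, 3164, 2854 and 1917 bp, with percentiles of 91.6, 91.3, 77.0 and 40.0. Clic4, 35978 bp from Runx3, had no peak near a start in any library. In each of the 3 pairs, 1 gene was marked in all 4 libraries and the other in none, a description made after the values were seen and not tested. The nearest protein-coding genes on the far sides that do not overlap the members, Setd4 for Runx1, Cdc5l for Runx2 and Syf2 for Runx3, had no peak near a start in any library. Supt3, which overlaps Runx2, had none either.

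**Figure D3:**
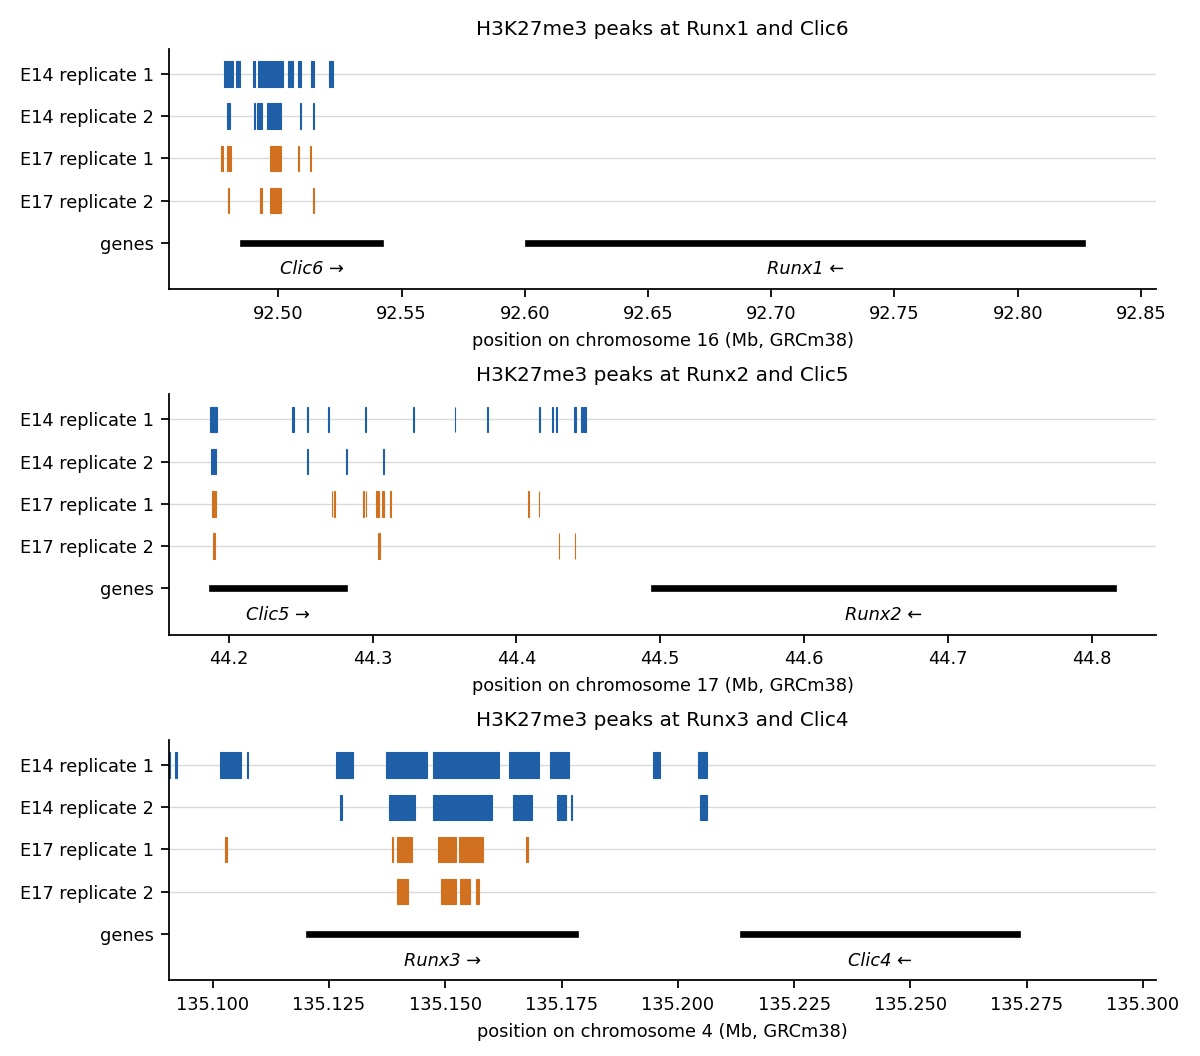
Peaks in the 4 libraries (blue E14, orange E17) across each Runx gene and its neighbouring Clic gene, against position in Mb on chromosomes 16, 17 and 4, with genes as black bars and arrows for their direction. Peaks fall on Clic6 and Clic5 and stay off Runx1 and Runx2, and fall on Runx3 and stay off Clic4.

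Sp7, also called osterix, is a zinc finger factor that acts downstream of Runx2 in osteoblast formation, and it was marked at E14. The 3 start sites of Sp7 lie between 102366513 and 102367182 on the minus strand of chromosome 15. Its window of 6670 bp was covered over 3268 bp in E14 replicate 1, 2054 bp in E14 replicate 2, 0 bp in E17 replicate 1 and 0 bp in E17 replicate 2. Cover was present in both E14 libraries and in neither E17 library (exact permutation test, two-sided, p = 0.333). Of the promoters marked in both E14 libraries, 25.3% had no peak in either E17 library, beside 1 of the 3 member promoters. The strongest E14 peak in the window stood at percentile 81.5 in replicate 1 and 56.0 in replicate 2, covered 1 and 2 of the 3 start sites and left out the most upstream one, so that in the window the mark lay over the gene rather than before it. The peak of E14 replicate 2 was weak enough to drop out with a −log10 q-value of at least 5 or with lists of equal number, when the lengths were 3268, 0, 0 and 0 bp. With lists of equal covered length, no peak remained in the window in any library, so the presence of the mark at the Sp7 start rests on the lower-ranked E14 peaks.

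The stronger mark on Sp7 lay at its 3′ end. The stretch from 102355718 to 102359414, of which 2797 bp are exonic, was covered over 3697 bp in E14 replicate 1, 3402 bp in E14 replicate 2, 336 bp in E17 replicate 1 and 0 bp in E17 replicate 2. Its percentiles were 88.1 and 88.3 in the E14 lists, above those at the start, and 16.6 in E17 replicate 1. The 336 bp peak of E17 replicate 1 was the only peak on Sp7 at E17 and had a −log10 q-value of 2.49, near the threshold of that list. Over the whole gene of 10577 bp, peaks covered 8138, 5461, 336 and 0 bp, or 76.9%, 51.6%, 3.18% and 0% in the same order. The mean went from 6800 ± 1893 bp (SD, n = 2) to 168 ± 238 bp (SD, n = 2), and the stages did not overlap (exact permutation test, two-sided, p = 0.333). Without E17 replicate 1, the E17 value is 0. With lists of equal covered length the gene held 0, 2686, 0 and 0 bp, so that the stages overlapped (exact permutation test, two-sided, p = 1), and the mark on the body, its 3′ end included, also rests on which E14 peaks are kept. The neighbours Aaas and Sp1 had no peak near a start in any library.

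Acan encodes aggrecan, the large proteoglycan of cartilage matrix, and its promoter was marked in all 4 libraries. Peaks covered the start (79053483, plus strand of chromosome 7) in every library, with 6001 bp of the 6001 bp window in E14 replicate 1, 6001 bp in E14 replicate 2, 4866 bp in E17 replicate 1 and 4785 bp in E17 replicate 2. Both E17 libraries were below both E14 libraries, with a change of −19.6% (exact permutation test, two-sided, p = 0.333). The E14 libraries fill this window too, and with windows of 5000 bp the lengths were 7701, 6424, 5741 and 4785 bp, a difference of −1799.5 bp instead of −1175.5 bp. Within 1000 bp of the start, all 4 libraries were covered over the whole 2001 bp, so the difference lay at the flanks. The peak held place 872, 971, 896 and 874 from the top of the 4 lists in the same order. The lists differ in length, and as percentiles these are 96.0, 94.2, 91.4 and 87.7, lower in both E17 lists than in both E14 lists and above the median of promoters marked in all 4 libraries in each list. In contrast to Runx3 P2, the E17 peaks of Acan remained with a −log10 q-value of at least 5, over the same lengths.

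The mark on Acan was confined to its 5′ end in E14 replicate 2 and E17 replicate 2. The body of 61617 bp was covered over 6236 bp in E14 replicate 1, 3078 bp in E14 replicate 2, 4554 bp in E17 replicate 1 and 2349 bp in E17 replicate 2. The stages overlapped, and the difference is no larger than that between replicates (exact permutation test, two-sided, p = 0.667). Without E14 replicate 1 the difference between the stages has the opposite sign, 373.5 bp in favour of E17. It was −2784.5 bp without E14 replicate 2, −2308 bp without E17 replicate 1 and −103 bp without E17 replicate 2. The internal start (79099751) is annotated from an incomplete transcript and may not be a true start. In its window, an exonic peak of 1636 bp lay 308 bp from it in E14 replicate 1 without covering it, and the other 3 lists had none. Isg20, the neighbour of Acan on its 5′ side, had no peak near a start in any library.

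**Figure D4:**
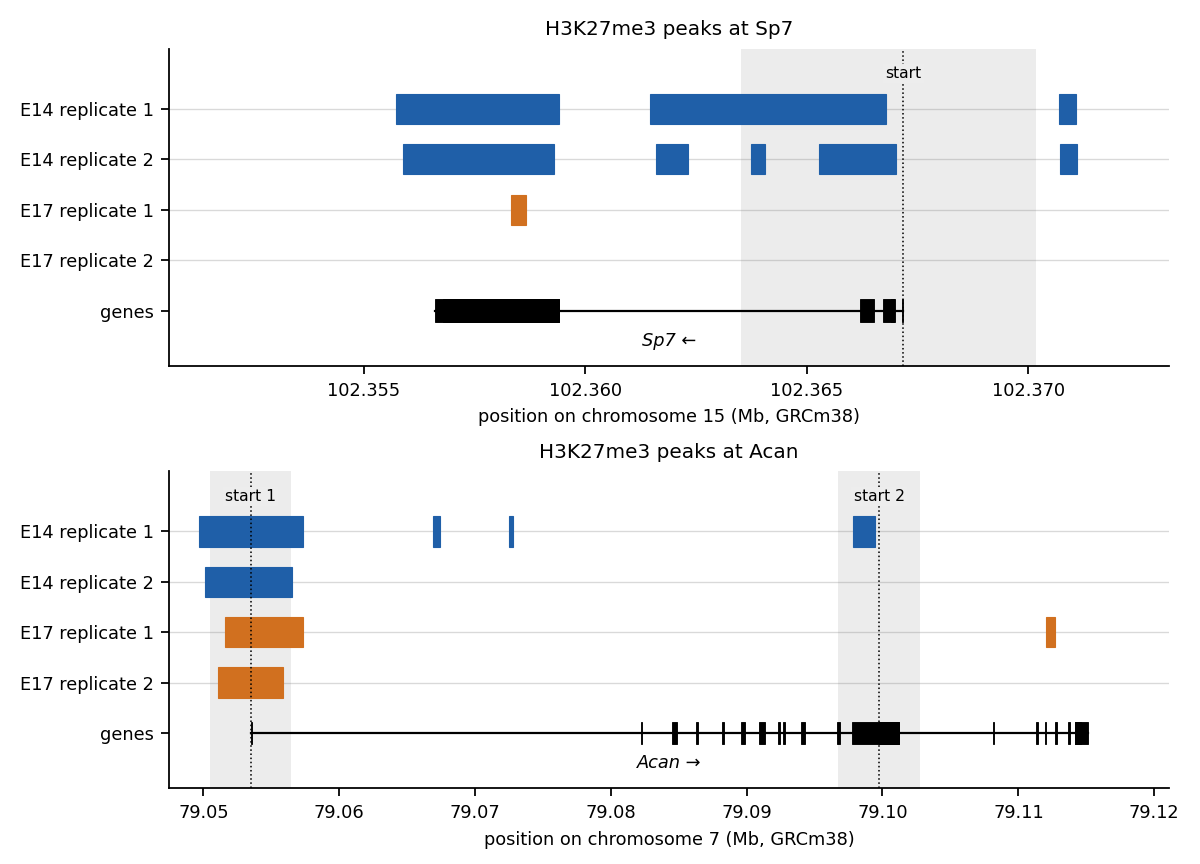
Peaks at Sp7 (top, chromosome 15) and Acan (bottom, chromosome 7) in the 4 libraries (blue E14, orange E17) against position in Mb, with exons in black, start sites dotted and promoter windows shaded. On Sp7 a single E17 peak of 336 bp is left in the last exon, while the peak over Acan start 1 is present in all 4 libraries.

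Spp1 (osteopontin) and Ibsp (bone sialoprotein) encode phosphorylated matrix proteins of bone that belong to the SIBLING family, and neither carried a peak. Their family lies in a cluster on chromosome 5, in which Dspp, Dmp1, Ibsp, Mepe and Spp1 had 0 bp covered over genes and promoter windows in all 4 libraries. Between the first base of Dspp (104170712) and the last base of Spp1 (104441050), the 4 lists held 0, 586, 0 and 0 bp. The peaks of this cluster were thus limited to 586 bp between genes in E14 replicate 2. For Spp1 the nearest peak was 358540, 116345, 515577 and 495460 bp away, and the gene beyond it, Pkd2, was also without a peak near a start.

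The marked promoters differed in sequence. CpG ratios in the 250 bases before the start were 0.914 at Runx3 P2 and 0.766 at Acan start 1, with 33 and 22 CpG, and 0.076 with 1 CpG at Sp7. The unmarked promoters ranged from 0 at Runx2 P1 and Ibsp to 0.993, with 27 CpG, at the upstream starts of Runx1 P2. Of the 3 member promoters with a ratio of at least 0.6, 2 had a peak in both E14 libraries, where 20.9% of all promoters of that kind did. Of the other 10, 1 did (Sp7), where the share was 9.09%. A CpG-dense start was thus present at marked and unmarked members alike. The split by CpG ratio depends on the stretch that is read. Over the whole window the ratio was 0.561 at Runx3 P2 and 0.392 at Acan start 1. It was higher at unmarked promoters, 0.661 and 0.626 at the upstream and downstream starts of Runx1 P2 and 0.614 at Runx2 P2. The bases before 5 starts are shown because they set these cases side by side: a dense promoter that lies in the E17 gap (Runx3 P2), a dense one that kept its peak (Acan start 1), a dense one with no peak (Runx1 P2), a sparse one marked at E14 (Sp7) and the unmarked promoter of the marked Runx gene (Runx3 P1). Capitals mark CG, and all run 5′ to 3′ on the strand of the gene in the RefSeq GRCm38.p6 assembly, at chr4:135152246-135152495 (plus), chr7:79053233-79053482 (plus), chr16:92697329-92697578 (minus), chr15:102367183-102367432 (minus) and chr4:135120402-135120651 (plus), each ending at the base before the GENCODE start.
Runx3 P2: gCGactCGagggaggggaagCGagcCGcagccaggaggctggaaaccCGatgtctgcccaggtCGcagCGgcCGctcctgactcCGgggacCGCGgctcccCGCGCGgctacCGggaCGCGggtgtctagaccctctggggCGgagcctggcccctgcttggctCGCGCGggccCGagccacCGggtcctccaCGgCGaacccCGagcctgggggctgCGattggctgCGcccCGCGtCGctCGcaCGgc
Acan start 1: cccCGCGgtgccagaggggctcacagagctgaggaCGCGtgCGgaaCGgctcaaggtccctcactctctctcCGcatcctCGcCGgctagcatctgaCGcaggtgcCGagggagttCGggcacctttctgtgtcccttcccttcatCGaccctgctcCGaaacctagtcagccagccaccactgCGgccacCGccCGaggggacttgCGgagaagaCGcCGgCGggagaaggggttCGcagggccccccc
Runx1 P2 upstream starts: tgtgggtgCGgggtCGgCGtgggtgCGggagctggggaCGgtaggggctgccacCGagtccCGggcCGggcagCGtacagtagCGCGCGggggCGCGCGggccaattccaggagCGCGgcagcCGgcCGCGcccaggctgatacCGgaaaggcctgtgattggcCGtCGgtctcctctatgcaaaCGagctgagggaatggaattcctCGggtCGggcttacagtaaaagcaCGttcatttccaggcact
Sp7: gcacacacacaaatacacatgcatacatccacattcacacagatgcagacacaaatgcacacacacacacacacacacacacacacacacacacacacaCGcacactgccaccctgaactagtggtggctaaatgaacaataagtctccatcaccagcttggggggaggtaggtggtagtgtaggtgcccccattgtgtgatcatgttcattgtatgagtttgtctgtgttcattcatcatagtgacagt
Runx3 P1: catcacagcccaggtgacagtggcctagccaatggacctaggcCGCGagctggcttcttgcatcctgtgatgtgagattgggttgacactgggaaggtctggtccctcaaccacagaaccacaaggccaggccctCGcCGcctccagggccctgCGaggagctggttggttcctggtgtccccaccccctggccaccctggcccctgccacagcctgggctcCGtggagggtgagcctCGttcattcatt

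These 250 bases were searched on both strands for TGTGGT, the core letters of Runx binding, and for TATAAA. The first of these occurred before 4 of the 13 member starts, where 15.6% of all promoters hold it. The P1 promoters of Runx1, Runx2 and Runx3 and the first start of Spp1 held it, with 2 matches at Runx3 P1, at 133 and 141 bases before the start. The 250 bases before the P2 starts did not hold these letters. TATAAA occurred before 2 of the 13 starts (Spp1 start 1 and the downstream starts of Runx1 P2), where 14% of all promoters hold it. A match is a description of letters and not a binding site.

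The promoters most like each marked member were found over 7672 promoters with a peak in any library, by the distance over 8 values (covered share and percentile in each of the 4 libraries). For Runx3 P2 they were Zic1 at 0.109, Zic4 at 0.129 and Cacng4 at 0.187. Zic1 had covered shares of 100%, 100%, 84.9% and 71.6% and percentiles of 94.3, 94.5, 72.5 and 54.3. Because Zic1 was chosen by these values, its likeness to Runx3 P2 in rank is no separate observation. Zic1 and Zic4 share a promoter region, so they are not separate examples. For Sp7 the nearest were Tyro3 (0.097), Vwa1 (0.116) and Arhgef15 (0.118), and for Acan start 1 they were Foxn4 (0.050), Spata18 (0.055) and Cdh22 (0.058). For the internal start of Acan they were Dnah8, Dlg2 and Fastkd1, each marked in E14 replicate 1 alone.

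Genes that act with the members were read from lists, and marked at a stage means here that both of its libraries had a peak near any start of the gene. Of 106 such genes, 59 were marked at E14 and 52 at E17, against 19.5% and 12.2% of all 21951 protein-coding genes. None of the 52 had both E14 libraries unmarked, and of the 2683 protein-coding genes marked at E17 only 20 had. Of the 59 marked at E14, 5 had both E17 libraries unmarked, beside 23.8% of all protein-coding genes marked at E14. With lists of equal number, 51 were marked at E14 and 50 at E17. The share of all protein-coding genes was not calculated with lists of equal number, so these counts show nothing particular to the 106 genes. Of 11 partners and corepressors of Runx proteins, 5 were marked at E14 and 3 at E17. The partner Cbfb had no peak in any library, and the corepressors Tle1, Tle4 and Cbfa2t3 were marked at both stages. Tle2 (1860 and 953 bp) and Runx1t1 (2731 and 1100 bp) were covered in the E14 replicates and not at E17, as Sp7 was. With windows of 1000 bp these partner counts are 3 and 1, and with lists of equal number they are 3 and 3. No share over all protein-coding genes was calculated for either setting.

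Osteoblast regulators were marked in equal number at the 2 stages, 11 of 20 at each. Msx1, a homeobox factor, had percentiles of 99.3, 99.8, 98.6 and 99.9, and Dlx6, Dlx5 and the ligand gene Bmp4 followed by mean percentile. Dlx5 and Dlx6, neighbouring homeobox genes that act upstream of Sp7, were covered over 6018 and 6465 bp in both E14 libraries, the whole of their windows. In E17 replicates 1 and 2, Dlx5 was covered over 6018 and 5155 bp and Dlx6 over 6465 bp in each. The 11 regulators had peaks at both stages, where the Sp7 window had peaks at E14 alone, which drop out with lists of equal covered length. Of 20 bone matrix and mineral genes, 4 were marked at each stage, among them Alpl, Phospho1 and Smpd3, and 16, like Spp1 and Ibsp, had no peak in any library. The marked share, 20% at each stage, lies near the 19.5% of all protein-coding genes marked at E14 and above the 12.2% marked at E17. No peak near a start in any library was found for 74.1% of all protein-coding genes.

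Of 26 cartilage regulators and matrix genes, 19 were marked at E14 and 15 at E17. These are 73.1% and 57.7%, against 19.5% and 12.2% of all protein-coding genes. With lists of equal number the counts were 14 and 13, for which no share over all genes was calculated. The homeobox gene Barx1 had the highest mean percentile, 99.7, followed by the cartilage matrix gene Comp at 99.6 and the transcription factor genes Sox6 at 98.1 and Foxc1 at 97.9. The genes marked at E14 with both E17 libraries unmarked were the collagen genes Col9a1 and Col9a3 and the matrilin gene Matn1. They were 3 of the 19, beside 23.8% of all protein-coding genes marked at E14. Sox9, the main cartilage transcription factor, was covered over 2012, 1151, 176 and 0 bp, with a remnant in E17 replicate 1 as on the Sp7 gene. Acan was among the cartilage matrix genes that kept the mark in all 4 libraries.

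Aggrecan has 3 relatives among the lecticans, and each lies beside a gene of a link protein (Hapln) that ties such proteoglycans to hyaluronan. Of the 7 relatives and link proteins, 4 were marked at both stages. Bcan and Hapln2 were covered in all 4 libraries, as were Ncan and Hapln4, while Vcan and Hapln1 had no peak in any. At Acan the pair differed, as its neighbour Hapln3, 2 bp away at the gene ends, had 316 bp in E14 replicate 1 and 0 bp in the other 3 libraries. In the Sp family, Sp5, Sp6, Sp8 and Sp9 were marked in all 4 libraries with mean percentiles of 94.7, 95.3, 97.8 and 98.8, Sp2 was marked at E14 and in E17 replicate 1, and Sp1, Sp3 and Sp4 had no peak. Sp7 therefore stood between these groups. Of 16 regulators of blood cells that act with Runx1 or Runx3, 12 were marked at each stage, among them Gata3, Gfi1, Eomes and Tal1 with the highest mean percentiles. Runx1 itself had no peak.

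The label of the cells was set against marker lists, in which a peak near a start shows where the mark is and not expression. None of 16 dermal fibroblast genes, such as Col1a1, Pdgfra and Twist2, had a peak near a start in any library, as was the case for 74.1% of all protein-coding genes. Marked at E14 and E17 were 5 and 5 of 9 keratinocyte genes, 5 and 4 of 7 skeletal muscle genes, 3 and 3 of 6 endothelial genes, 0 and 0 of 5 immune genes, 2 and 2 of 5 melanocyte and Schwann cell genes, 2 and 1 of 7 osteoblast genes and 6 and 4 of 6 chondrocyte genes. Over all protein-coding genes the marked shares were 19.5% and 12.2%, and the osteoblast list, at 28.6% and 14.3%, lay near them. The osteoblast list holds Runx2, Sp7, Ibsp and Spp1 and the chondrocyte list holds Acan, so the counts of these lists reuse values given above and are no separate check. The immune list was without peaks like the fibroblast list, so a list with no peak does not identify the cells, and the label could be checked only this far. The part of other cell types in the values of the 7 genes was not tested.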

How the data were processed

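The input was 4 lists of H3K27me3 broad peaks, 2 for E14 and 2 for E17. Alignment was by bowtie2 and peak calling by MACS2 in broad mode, with a q-value of 0.01 and each library apart, as the authors' methods and the lists show. The processing notes of the submitters name Bowtie2 2.3.5.1, SAMtools 1.9, MACS2 2.2.7.1, deepTools 3.5.1 and the build mm10. Among the deposited columns, fold enrichment is the ratio of pileup to local background, averaged over a peak by the authors' caller. The columns on a −log10 scale, for p and for q, are as the authors deposited them. The control of the peak call and the read filters are not given in the sources used here. The methods state that samples of the later stage were subsampled to a common depth, and whether it covers these libraries is not clear.

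Positions were read in GRCm38, and 0 of 55554 peaks on assembled chromosomes passed a chromosome end. Start sites came from GENCODE release M21 (all transcripts) and sequence from the RefSeq assembly GRCm38.p6. Start sites of a gene within 1000 bp of the next formed 1 promoter, with a window of 3000 bp either side. P1 and P2 of a Runx gene were told apart by the start of the encoded protein. A peak was assigned on an overlap of at least 1 bp. Covered length was compared between stages by a two-sided exact permutation test without covariates. Percentiles of fold enrichment were taken within each list and not compared as folds between lists. The calculations used Python 3.11.15, numpy 2.4.6, pysam 0.24.0, samtools 1.23.1 and matplotlib 3.10.9 and were tested on simulated data.

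The genes named by rule are the 7 members, the nearest protein-coding gene on each side, the marked genes of each list of genes that act with the members (in lists with over 8 of these, those that differ between stages and the 4 with the highest mean percentile) and the 3 promoters most like each marked member promoter. Cell type marker lists are given as counts. The pairing of Runx with Clic genes and of lecticans with Hapln genes, Cbfb, Sox9, the unmarked Sp genes and the fibroblast genes were picked for mention once their values had been seen. 1 further marked gene of the lists is not reported here. The members and lists were chosen with earlier results of these data known. The alternatives were windows of 1000 and 5000 bp, a −log10 q-value of at least 3 or 5, peaks of at least 1000 bp, lists of equal number or equal covered length, start sites of protein-coding transcripts, ranks by −log10 p-value or by the widest peak, a peak in either library of a stage, a replicate block and leaving out each library. The input library and differential binding were not analysed here.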

Additional observations from a re-analysis of the deposited data

How the results depend on the processing

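Of 82 recalculations of the covered length at the 4 marked promoters and in 3 gene bodies, 76 kept the direction of the difference E17 minus E14. Both counts include the replicate block, which repeats the main difference by construction and could not change its direction. None of the recalculations could reach 0.05 with these numbers of libraries. The difference at Acan start 1 was 0 bp with a window of 1000 bp, because every library filled it. At the internal start of Acan it was 0 bp with a −log10 q-value of at least 5, with lists of equal covered length and without E14 replicate 1. Leaving out each library gave −1636 to 0 bp there and −2784.5 to 373.5 bp in the body of Acan, whose sign turns without E14 replicate 1. At Sp7 the difference was 0 bp with lists of equal covered length. The number of member promoters with a peak in all 4 libraries was 1 with a −log10 q-value of at least 5. Ranked among peaks of at least 1000 bp only, the mean percentiles were 90.5 at E14 and 79.7 at E17 for Acan start 1 and 94.9 and 42.7 for Runx3 P2. The widest peak at Runx3 P2 had a mean percentile of 58.2 at E17. The number of marked Runx partners was 3 at E14 with windows of 1000 bp and with lists of equal number, and 1 at E17 with windows of 1000 bp. The difference at Runx3 P2 ranged from −764 bp without E17 replicate 2 to −7941 bp with a −log10 q-value of at least 5, and that in the body of Runx3 was −10544 bp and of Sp7 −1343 bp with lists of equal covered length. The cause of these shifts was not tested, apart from those that the settings build in.

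The replicate block, the mean of differences within a replicate number, gave −1666 bp at Runx3 P2, −2661 bp at Sp7, −1175.5 bp at Acan start 1 and −20546 bp in the body of Runx3, each with an exact p of 0.5, the smallest that 2 pairs allow. With 2 libraries per stage these values equal the main differences by construction and are no further support. The libraries share only a number: over 7672 promoters, the differences between replicates 1 and 2 at the 2 stages had a correlation of 0.073. The lists hold no read counts, so a lower length at E17 in a library with fewer peaks cannot be told apart from a lower sensitivity of that list.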
